A study of Mus musculus with 5 samples.

Results

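The chromatin around 6 genes of the transforming growth factor β (TGF-β) pathway, Tgfb1, Tgfbr2, Smad3, Smad6, Smad7 and Skil, was examined for p300 and c-Jun peaks in MS5 cells, an established stromal line from mouse bone marrow. Peaks were taken where their centre lay in 1 of 5 windows of the mouse build mm9: Tgfb1 on chromosome 7 (26.43 to 26.53 Mb), Tgfbr2 on chromosome 9 (115.94 to 116.14 Mb), Smad3 and Smad6 together on chromosome 9 (63.44 to 63.93 Mb), Smad7 on chromosome 18 (75.45 to 75.61 Mb) and Skil on chromosome 3 (30.93 to 31.08 Mb). The windows span 1100 kb and hold 128 of the 83829 peaks in the 4 deposited lists. The lists come from chromatin immunoprecipitation followed by sequencing (ChIP-seq). A p300 library and a c-Jun library came from cells given TGF-β1 at 10 ng/mL together with pioglitazone at 20 ng/mL for 5 h, and a further p300 and c-Jun library from cells given the same TGF-β1 for 5 h without pioglitazone. All cells were therefore stimulated with TGF-β1, were at passage 11 and were fixed with formaldehyde, and no unstimulated library was analysed here. Pioglitazone is an agonist of PPARγ, a nuclear receptor that drives fat cell differentiation. A pooled input completes the 5 samples, and no file of it was used here. With 1 library for each antibody and treatment, no difference below has a replicate check or a p-value. Sequencing depth is unknown, and the intervals given cover counting error only.

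TGF-β ligands bind a type II receptor, which activates a type I receptor that phosphorylates the receptor-regulated SMAD proteins. These enter the nucleus with SMAD4, bind DNA, often beside AP-1 (dimers of Jun and Fos family proteins), and recruit coactivators such as p300, a histone acetyltransferase of active enhancers and promoters. The pathway also induces its own inhibitors, among them the inhibitory SMADs and the SKI family corepressors, and in fibroblastic cells it is known for driving matrix production.

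RefSeq start-site sequences (build GRCm38.p6, 250 bases before to 50 after the start, 5′ to 3′ on the gene's strand) were found for 4 of the 6 genes: Tgfb1, Smad3, Smad6 and Tgfbr2. Motifs known for the factors of this pathway were searched on both strands: the AP-1 site TGANTCA, the related site TGACGTCA, the SMAD palindrome GTCTAGAC and the shorter SMAD element CAGAC, whose reverse complement is GTCTG. The 2 sequences that held a match are shown with the match in capitals, for Smad6 on the minus strand (chr9:64022010-64022309) and for Tgfbr2 on the minus strand (chr9:116175314-116175613).
Smad6: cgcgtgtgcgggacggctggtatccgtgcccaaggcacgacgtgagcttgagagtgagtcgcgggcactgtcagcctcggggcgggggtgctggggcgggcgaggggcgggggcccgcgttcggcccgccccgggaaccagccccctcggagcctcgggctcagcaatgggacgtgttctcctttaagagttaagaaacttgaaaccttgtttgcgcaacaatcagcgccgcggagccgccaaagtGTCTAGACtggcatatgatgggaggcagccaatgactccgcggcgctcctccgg
Tgfbr2: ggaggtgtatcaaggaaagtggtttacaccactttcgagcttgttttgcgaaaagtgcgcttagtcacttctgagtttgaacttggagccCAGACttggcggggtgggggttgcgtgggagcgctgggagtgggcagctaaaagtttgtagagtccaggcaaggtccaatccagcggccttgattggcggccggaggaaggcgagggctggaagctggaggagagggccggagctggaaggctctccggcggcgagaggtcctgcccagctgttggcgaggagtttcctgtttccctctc
The Smad6 sequence held GTCTAGAC at bases 247 to 254, a motif present in 70 of 32851 start-site sequences (0.213%). The Tgfbr2 sequence held CAGAC at bases 91 to 95, a motif present in 49.6% of them. TGANTCA, present in 7.81% of all sequences, and TGACGTCA, present in 1.79%, were in none of the 4. These positions belong to another build than the peak lists, so no peak was placed on them, and a match is a description of the letters only.

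Across the 5 windows the lists held 31 p300 peaks with pioglitazone, against 45 without it, and 23 c-Jun peaks with pioglitazone, against 29 without it. The p300 count with pioglitazone was 68.9% of that without, where the whole p300 list was 69.9% as long. For c-Jun the corresponding values were 79.3% in the windows and 78.2% for the whole list. The windows as a group therefore differed between treatments by about as much as the lists did. They were denser in peaks than the lists at large: 2.82 p300 peaks per 100 kb with pioglitazone and 4.09 without, against 0.86 and 1.23 over the length of the chromosomes between their first and last peaks. c-Jun reached 2.09 peaks per 100 kb with pioglitazone and 2.64 without, against 0.522 and 0.667 over the same length. The windows were drawn around genes, and the density around other genes was not counted. They were also chosen with earlier results of these data known, so their density is a description only.

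**Figure D1:**
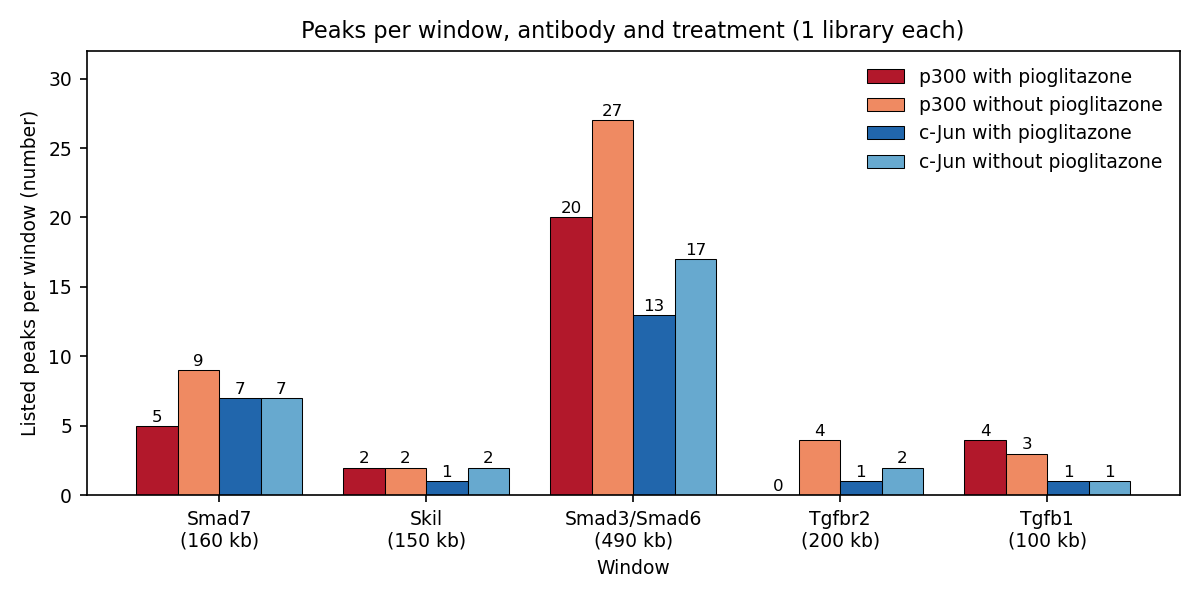
Number of listed peaks (vertical axis) in each of the 5 windows (horizontal axis, window width in kb) for p300 and c-Jun with and without pioglitazone, 1 library per bar. The Smad3/Smad6 window is the widest and holds the most peaks, and the Tgfbr2 window is the one with 0 p300 peaks with pioglitazone and 4 without.

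Peaks without pioglitazone were counted as retained where the other list of their antibody had a peak overlapping them by at least 1 bp, and as lost where it had none. Peaks with pioglitazone were counted as gained where the list without it had none at that position. Of the 45 p300 peaks without pioglitazone in the windows, 25 were retained, 55.6% (exact 95% interval 40.0 to 70.4), where 51.1% of the whole list was, and 20 were lost (48.9% in the whole list). Gained p300 peaks numbered 6 of 31, 19.4% (7.45 to 37.5), against 26.9% in the whole list. Among the 29 c-Jun peaks that the windows held without pioglitazone, 17 were retained, 58.6% (38.9 to 76.5), against 45.7% in the whole list, and 12 were lost (54.3% in the whole list). Gained c-Jun peaks numbered 6 of 23, 26.1% (10.2 to 48.4), against 41.6% in the whole list. All 4 intervals include the value of the whole list. With the lists of each antibody cut to equal length by row, the retained shares were 58.1% in the windows and 64.6% in the whole list for p300, and 60.7% and 52.9% for c-Jun, so for p300 the order of windows and whole list turned round. A retained p300 peak lay at a median of 20 bp, centre to centre, from its counterpart, against 38 bp in the whole list, and a retained c-Jun peak at 47 bp, against 43 bp.

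**Figure D2:**
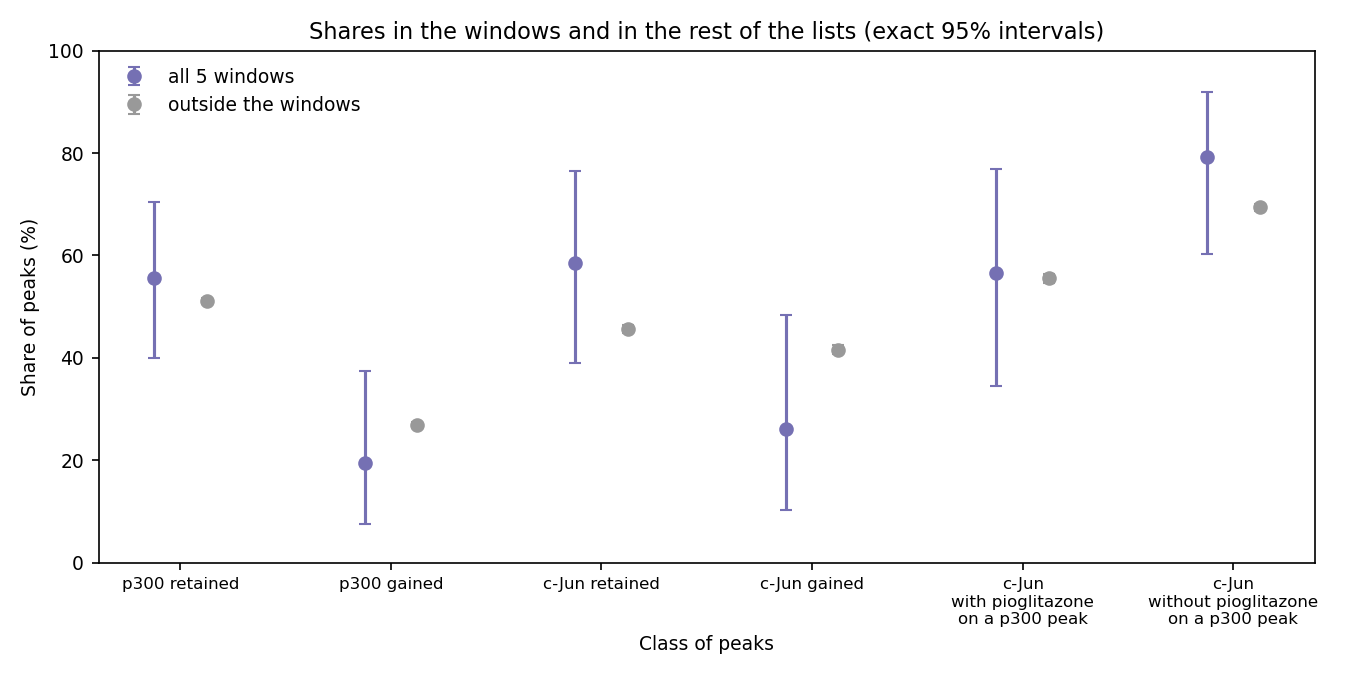
Share of peaks (vertical axis, %) that were retained, gained or on a p300 peak (horizontal axis) in the 5 windows and in the rest of the lists; points are shares and bars exact 95% intervals for counting error. Each interval of the windows includes the share outside them.

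The deposited score is 1 for every peak, so peaks are further described by the place of their row in the list, in % from the top. What the submitters sorted the rows by is not stated. The median place of the p300 peaks was 25.7% with pioglitazone and 29.1% without, and that of the c-Jun peaks was 15.3% with and 26.0% without. The whole lists have their median at 50% by construction. The windows differed in this: the median place of each list lay between 4.84% and 21.2% for Smad7 and between 23.2% and 27.1% for Smad3/Smad6, but between 42.7% and 75.9% for Skil. In the upper 50% of the p300 list without pioglitazone stood 36 of the 45 window peaks, and in that of the c-Jun list 23 of 29. Retention goes with this place in the whole lists, from 96.2% of p300 peaks in the first 10% to 13.3% in the last 10%. All 11 window p300 peaks and all 4 window c-Jun peaks in the first 10% of the lists without pioglitazone were retained, against 96.2% and 90.8% of all peaks there. Within the upper 50% of rows, 63.9% (46.2 to 79.2) of the window p300 peaks were retained, against 74.5% of all p300 peaks there, and 73.9% (51.6 to 89.8) of the window c-Jun peaks, against 64.5%. In the lower 50%, 2 of 9 p300 peaks and 0 of 6 c-Jun peaks of the windows were retained, where the whole lists kept 27.7% and 26.8%.

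Overlapping peaks of the 4 lists merged into 56 sites in the windows. Of these, 12 sites (21.4%) were in all 4 lists, against 12.9% of the 44718 sites in the whole series, and all 12 lay in the Smad3/Smad6 window (8) or the Smad7 window (4). Those 2 windows hold most of the sites, 32 and 11 of the 56. No interval was computed for the shares of sites, so they are descriptions only. A further 10 sites were in 3 lists, 16 in 2 and 18 in 1. The most frequent pattern of 3 lists was p300 in both treatments with c-Jun without pioglitazone. It made up 8.93% of the window sites, against 7.19% in the whole series. The most frequent of 2 lists, p300 in both treatments, made up 12.5%, against 13.4%. Of the 18 sites in 1 list, 11 held p300 without pioglitazone alone, 19.6% of the window sites, against 25.7% in the whole series. p300 with pioglitazone alone made up 5.36%, against 10.6%. c-Jun alone made up 3.57% in each treatment, against 6.93% with pioglitazone and 8.06% without. p300 was listed in both treatments at 25 sites and c-Jun at 17. These are the retained peaks counted above, 55.6% and 58.6%, against 51.1% and 45.7% in the whole lists. At 21 sites c-Jun was in neither list, and at 5 sites p300 was in neither. c-Jun was thus in at least 1 list at 62.5% of the sites, against 50.3% in the whole series, and p300 at 91.1%, against 83.3%.

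**Figure D3:**
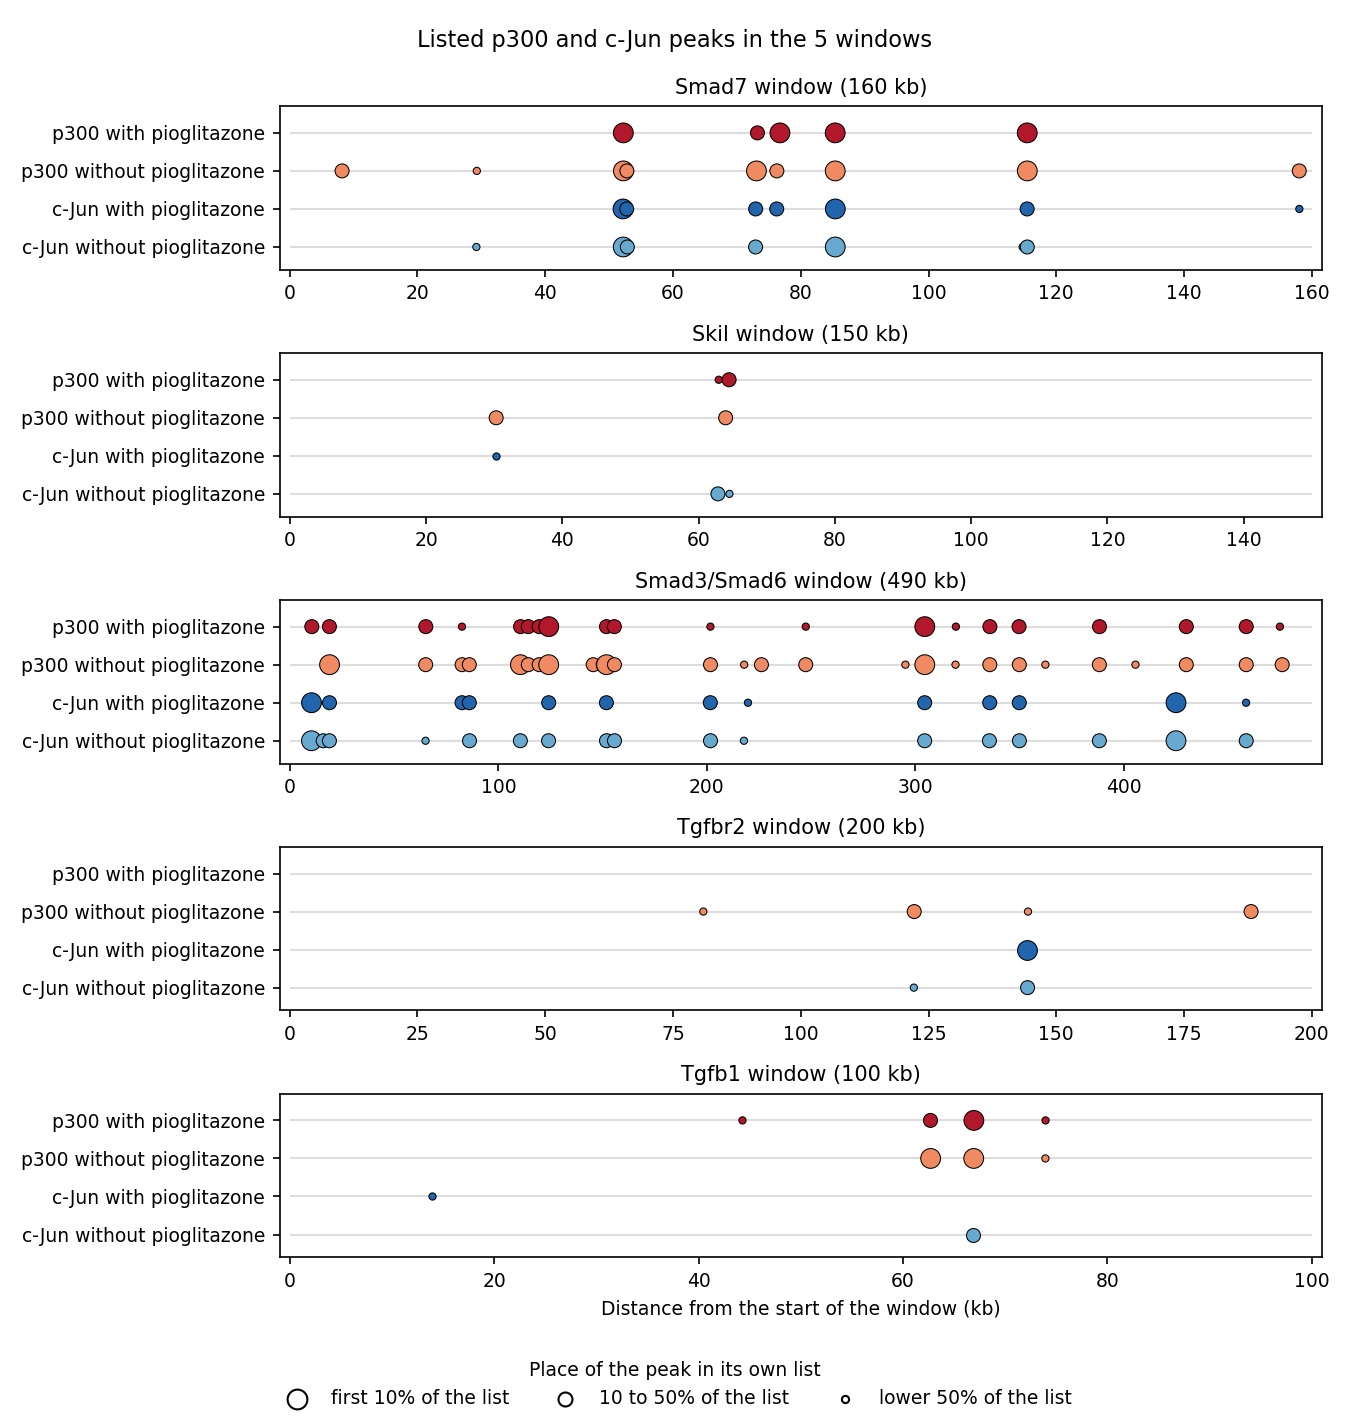
Position of every listed peak (horizontal axis, kb from the start of the window) in the 5 windows, 1 row per library, with larger points for peaks nearer the top of their own list. Columns of 4 points mark the 12 sites in all 4 lists, in the Smad7 and Smad3/Smad6 windows.

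The ligand gene Tgfb1 encodes TGF-β1, the cytokine that was also added to the cells. Its window held 4 p300 peaks with pioglitazone, against 3 without, and 1 c-Jun peak in each treatment. The 3 p300 peaks without pioglitazone were all retained (interval 29.2 to 100%), where the whole list retained 51.1% over all rows and 96.2% in its first 10%, in which 2 of the 3 stood. The leading one, at 26496755 to 26497051 on chromosome 7, stood at row 965 of 21994 (4.39%) with pioglitazone and at row 412 of 31466 (1.31%) without, which made it the first p300 peak of the window in both lists. c-Jun was listed at that site without pioglitazone, at row 2398 of 17044 (14.1%), and not with it. In the matching 10% step of the whole c-Jun list, between 10 and 20%, 26.2% of peaks were lost. With pioglitazone the nearest c-Jun peak was at 26443754 to 26443988, 53008 bp away, low in its list (56.3%) and without p300. The second p300 site, at 26492582 to 26492829, stood at 14.4% with pioglitazone and 7.47% without, and the third, at 26503813 to 26504063, at 60.4% and 62.3%. The gained p300 peak, at 26474183 to 26474409, stood at 56.5% of the list with pioglitazone, in a 10% step where 30.0% of all p300 peaks were gained. In the RefSeq gene order (GRCm38.p6) B9d2 and Ccdc97 are the protein-coding neighbours of Tgfb1, so peaks of this window may lie at either of them.

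The receptor gene Tgfbr2 encodes the type II receptor, the ligand-binding kinase that starts the signal. Its window held 0 p300 peaks with pioglitazone, against 4 without, and 1 c-Jun peak with pioglitazone, against 2 without. None of the 4 p300 peaks was high in the list: they stood at 51.4%, 30.2%, 62.5% and 34.0%, in order along the chromosome. In the matching 10% steps of the whole p300 list, 56.0% of peaks were lost between 50 and 60%, 37.0% between 30 and 40% and 64.7% between 60 and 70%. The count of 0 depends on the edge of the window. The nearest p300 peak with pioglitazone lay 1.10 kb outside it and 12984 bp from the last of the 4, at row 20093 of 21994. c-Jun was listed in both treatments at a single site. At 116084218 to 116084591 on chromosome 9, c-Jun stood at row 685 of 13325 (5.14%) with pioglitazone and at row 3549 of 17044 (20.8%) without. p300 was listed there without pioglitazone only, at row 19666 of 31466 (62.5%). At 116062006 to 116062320 both factors were listed without pioglitazone, p300 at 30.2% and c-Jun at 61.1%, and neither with it. The other 2 p300 sites, at 116020812 to 116021058 and 116127996 to 116128242, had no c-Jun in either treatment. Gadl1 and Rbms3 flank Tgfbr2 in the RefSeq gene order.

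Smad3 encodes a receptor-regulated SMAD, which carries the signal to DNA, and Smad6 an inhibitory SMAD, best known for restraining BMP signals. The genes are neighbours, Smad3 before Smad6 along the chromosome in the RefSeq order, with Aagab before Smad3 and Lctl after Smad6. Their shared window of 490 kb held 20 p300 peaks with pioglitazone, against 27 without, and 13 c-Jun peaks with it, against 17 without. Among the 27 p300 peaks, 18 were retained, 66.7% (46.0 to 83.5), and 9 were lost, while 2 of 20 with pioglitazone were gained, 10.0% (1.23 to 31.7). Of the c-Jun peaks, 11 were retained, 64.7% (38.3 to 85.8), 6 were lost, and 2 of 13 were gained, 15.4% (1.92 to 45.4). The whole lists retained 51.1% and gained 26.9% for p300, and 45.7% and 41.6% for c-Jun, all 4 within these intervals. The peaks formed 32 sites over 466 kb, with a median of 14.2 kb between neighbouring sites. The widest gaps were of 47.8, 46.1 and 46.0 kb. Because no annotation of mm9 was used here, sites were not divided between the 2 genes.

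The 8 sites of this window in all 4 lists were spread over its length. The site at 63744287 to 63744579 on chromosome 9 was the first p300 peak of the window with pioglitazone, at row 479 of 21994 (2.18%), and stood at 3.33% without. c-Jun there stood at 10.3% with pioglitazone and 21.6% without, so both antibodies were nearer the top of the list with pioglitazone. The site at 63591707 to 63591996 was the first p300 peak without pioglitazone, at row 1038 of 31466 (3.30%), and stood at 12.4% with it, with c-Jun at 15.3% with and 17.1% without. The site at 63563953 to 63564293 held p300 at 7.14% with pioglitazone and 3.60% without, and c-Jun at 23.2% and 29.7%. At 63458897 to 63459206, 63775319 to 63775795 and 63789540 to 63789947, p300 stood between 17.9% and 25.7% with pioglitazone and between 7.02% and 15.3% without. c-Jun at these 3 sites stood between 10.3% and 32.9% with pioglitazone and between 10.1% and 17.1% without. The last 2 of the 8 sites moved far in 1 list each. At 63641525 to 63641845 p300 stood at 93.4% with pioglitazone and 38.0% without, while c-Jun stood at 27.5% and 26.0%. At 63898376 to 63898694 c-Jun stood at 90.6% with pioglitazone and 25.0% without, while p300 stood at 30.7% and 23.0%.

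The 2 c-Jun sites nearest the top in the Smad3/Smad6 window had p300 in 1 list or in none. The first in both treatments lay at 63450279 to 63450691, at row 202 of 13325 (1.52%) with pioglitazone and at row 224 of 17044 (1.31%) without. It was 10.5 kb from the start of the window, on the side of Aagab, and may lie at that gene. p300 was listed there with pioglitazone only, at 36.2%. The site at 63864773 to 63865032 held c-Jun at 7.38% with pioglitazone and 2.51% without, and no p300 in either list. c-Jun was listed in 1 treatment only at 8 sites of this window, which are the 6 lost and 2 gained c-Jun peaks counted above. In the whole lists 54.3% of c-Jun peaks without pioglitazone were lost, and 41.6% of those with it were gained. One of these 8 sites, at 63522462 to 63522762, held c-Jun with pioglitazone at 14.7%, beside p300 in both treatments at 53.3% with and 39.6% without. In the matching 10% step of the whole c-Jun list, between 10 and 20%, 15.3% of peaks were gained. The sites at 63550443 to 63550763, 63595509 to 63595806 and 63828029 to 63828335 held c-Jun without pioglitazone, at 34.6%, 48.3% and 38.9%, and kept p300 in both lists. A c-Jun peak alone at 63455920 to 63456168 stood at 46.5% without pioglitazone. In the matching 10% steps of the whole c-Jun list, 49.2% of peaks were lost between 30 and 40% and 53.7% between 40 and 50%. The other 3 of the 8 sites stood in the lower 50% of their c-Jun list.

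Smad7 encodes the other inhibitory SMAD, which blocks the type I TGF-β receptor and is a classical feedback target of the pathway. Its window held 5 p300 peaks with pioglitazone, against 9 without, and 7 c-Jun peaks in each treatment. It had the densest c-Jun peaks of the 5 windows, 4.38 per 100 kb in both treatments. Of the 9 p300 peaks, 4 were retained and 5 lost, and of the 7 c-Jun peaks without pioglitazone 5 were retained and 2 lost. These retained shares were 44.4% (13.7 to 78.8) for p300, where the whole list gave 51.1%, and 71.4% (29.0 to 96.3) for c-Jun, where it gave 45.7%. All 4 retained p300 peaks were sites that c-Jun also held in both treatments. In the whole series 12.9% of sites were in all 4 lists, and 13.4% had p300 in both treatments and no c-Jun. A further 7.19% and 2.77% had p300 in both treatments and c-Jun only without or only with pioglitazone. The site at 75535271 to 75535525 on chromosome 18 was the first p300 peak of the window in both lists, at row 399 of 21994 (1.81%) with pioglitazone and row 309 of 31466 (0.982%) without. c-Jun there stood at row 516 of 13325 (3.87%) with pioglitazone and at row 530 of 17044 (3.11%) without, its first row of the window without pioglitazone. The site at 75502057 to 75502355 held the first c-Jun peak with pioglitazone, at row 515 of 13325 (3.86%), and c-Jun at 5.02% without, with p300 at 2.05% with and 3.13% without. These 2 sites thus stood within the first 5.02% of all 4 lists.

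The other 2 such sites near Smad7 shifted more. At 75565324 to 75565586 c-Jun stood at 10.1% with pioglitazone and 31.4% without, and p300 at 9.58% and 3.51%. At 75522805 to 75523329 c-Jun stood at 26.9% with pioglitazone and 12.3% without, and p300 at 15.5% and 5.55%. With pioglitazone the p300 and c-Jun peaks of that site did not overlap (275 bp, centre to centre). They were merged only through the peaks without pioglitazone. The site at 75502637 to 75502976 kept c-Jun (12.9% with, 21.2% without) and held p300 without pioglitazone only, at 11.6%. In the matching 10% step of the whole p300 list, between 10 and 20%, 12.4% of peaks were lost. At 75526118 to 75526380 c-Jun was listed with pioglitazone only, at 14.9%, and p300 without pioglitazone only, at 10.9%. Between 10 and 20% of the whole c-Jun list with pioglitazone, 15.3% of peaks were gained, and the p300 peak stood in the step that lost 12.4%. A gained p300 peak, at 75526625 to 75526851 and row 1065 of 21994 (4.84%), lay 481 bp from the lost p300 peak of that site, centre to centre. In the first 10% of the whole p300 list with pioglitazone, 2.23% of peaks were gained. Under the alternative rule of centres within 500 bp, this pair counts as neither gained nor lost. The remaining 4 sites stood at 42.5% or farther down in every list that held them. Dym and Ctif flank Smad7 in the RefSeq gene order.

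Skil encodes SnoN, a SKI family corepressor that binds SMAD complexes and is induced by TGF-β as a brake. Its window held few peaks, 2 for p300 in each treatment, and 1 for c-Jun with pioglitazone, against 2 without. None of them overlapped a peak of the same antibody in the other treatment, and none overlapped the other antibody in the same treatment. In the whole lists 33.7% of p300 peaks with pioglitazone and 37.6% without overlapped c-Jun. Of the c-Jun peaks, 55.5% with pioglitazone and 69.4% without overlapped p300. At 3 of the 4 sites p300 was listed in one treatment and c-Jun in the other. This crossed pattern was seen at 5 of the 56 sites of all windows (8.93%) and at 2.75% of the sites of the whole series. The pattern was not planned, and 3 of these 5 are the Skil sites themselves, so the 8.93% is not separate support. The other 2 were among the 11 sites of the Smad7 window. At 30992723 to 30993079 on chromosome 3, p300 was listed with pioglitazone (row 11954 of 21994, 54.4%) and c-Jun without (row 7832 of 17044, 46.0%). At 30994369 to 30994654, p300 was listed with pioglitazone (row 9324 of 21994, 42.4%) and c-Jun without (67.2%). The p300 peak without pioglitazone between them, at 30993853 to 30994099 (row 12871 of 31466, 40.9%), lay 506 bp from the second of these p300 peaks and 1010 bp from the first. At 30960122 to 30960419, c-Jun was listed with pioglitazone (row 10110 of 13325, 75.9%) and p300 without (44.5%). All peaks of the Skil window thus stood at 40.9% or farther down in their lists. In the 10% step of the whole p300 list that holds both p300 peaks without pioglitazone, between 40 and 50%, 47.7% of peaks were lost. For the c-Jun peaks without pioglitazone the matching steps lost 53.7% (40 to 50%) and 68.4% (60 to 70%). With pioglitazone the matching steps gained 23.9% (40 to 50%) and 30.0% (50 to 60%) for p300, and 58.8% (70 to 80%) for c-Jun. Prkci and Cldn11 flank Skil in the RefSeq gene order.

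Across the windows c-Jun peaks lay on p300 peaks of the same treatment at 13 of 23 with pioglitazone, 56.5% (34.5 to 76.8), and at 23 of 29 without, 79.3% (60.3 to 92.0). The whole lists gave 55.5% with pioglitazone and 69.4% without. With the p300 lists cut to equal length the whole-list share without pioglitazone was 60.6%, and that of the windows was 79.3% as before. Seen from p300, 13 of 31 peaks with pioglitazone overlapped c-Jun, 41.9% (24.5 to 60.9), against 33.7% in the whole list. Without pioglitazone 23 of 45 did, 51.1% (35.8 to 66.3), against 37.6%. Both intervals include the value of the whole list. By window, 3 of 7 c-Jun peaks near Smad7 lay on p300 with pioglitazone and 6 of 7 without, and in the Smad3/Smad6 window 10 of 13 with and 14 of 17 without. The 23 sites with both factors without pioglitazone kept both in 12 cases, p300 alone in 5, c-Jun alone in 3 and neither in 3. That is 52.2%, 21.7%, 13.0% and 13.0%, against 46.9%, 27.2%, 9.44% and 16.5% in the whole lists. p300 peaks that overlapped c-Jun were retained at 17 of 23 (73.9%) and p300 peaks alone at 8 of 22 (36.4%), close to the 74.1% and 37.2% of the whole lists. Of the 8 retained p300 peaks without c-Jun, 6 were in the Smad3/Smad6 window and 2 in the Tgfb1 window.

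The place of the retained sites was also compared between treatments. Among 25 p300 sites in both lists, 7 stood nearer the top with pioglitazone and 18 farther from it, with a median difference of 6.06 percentage points (with minus without), against 5.53 over 16077 p300 peaks of the whole list. Among 17 c-Jun sites, 8 stood nearer the top with pioglitazone and 9 farther, with a median difference of 0.202 points, against 2.3 over 7783 peaks. The lists differ in length, so a place in % is relative to each list and is not a measure of binding. By row number the direction turns round at some sites, so these splits hold for the place in % only. For example, c-Jun at 63641525 stood at row 3667 with pioglitazone and row 4430 without, but farther from the top in %. The p300 peak at 63522462 did likewise, at row 11716 with pioglitazone and row 12445 without. The widest moves towards the top with pioglitazone were those of c-Jun near Smad7 at 75565324 (a difference of -21.4 points) and near Tgfbr2 at 116084218 (a difference of -15.7 points). The widest moves away were the c-Jun peak at 63898376 (65.6 points) and the p300 peak at 63641525 (55.4 points), both in the Smad3/Smad6 window.

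**Figure D4:**
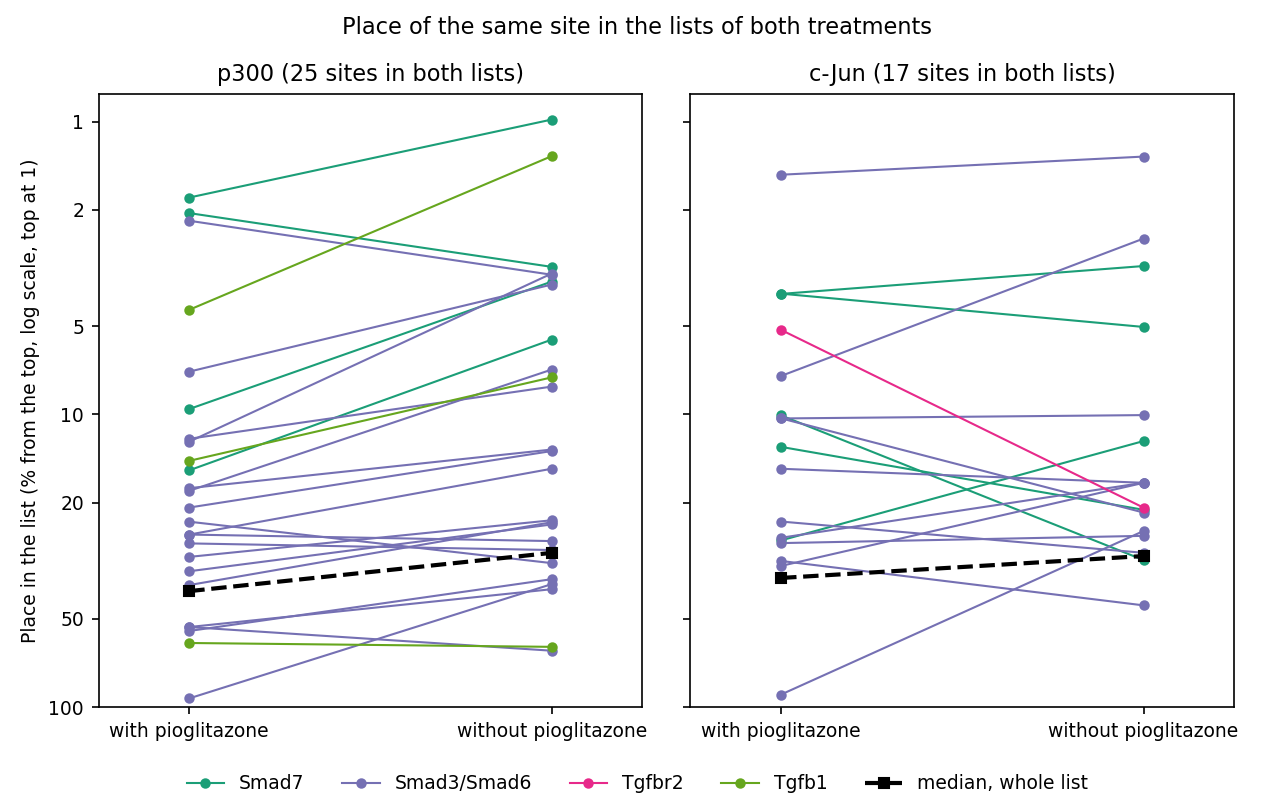
Place in the list (vertical axis, % from the top on a log scale, top of the list uppermost) with pioglitazone and without it for each site of the windows listed in both treatments, p300 at left and c-Jun at right; lines join the same site, colours give the window, and black squares the median of all peaks in both lists. Most p300 lines run farther from the top with pioglitazone (18 of 25), as does the median of the whole list, and c-Jun lines run both ways (8 and 9).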

How the data were processed

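Peak lists of 4 ChIP-seq libraries were analysed. The submitters' processing notes name build mm9 with Bowtie2 2.3.4.3, SAMtools 1.9 and HOMER. Caller settings, filters and how the input served are not stated in them. Each library has its own list. The score deposited by the authors is 1 for every peak, and all peaks of a list have 1 width (227 and 247 bp for p300 with and without pioglitazone, 235 and 249 bp for c-Jun). No read counts are in the lists.

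Peaks were assigned to a window by their centre and positions are given from 1. The nearest peaks to a window edge lay 1.95 to 30.2 kb inside it and 1.10 to 9.42 kb outside it. Overlaps of at least 1 bp were computed in Python (version 3.11.15, numpy 2.4.6, pandas 2.3.3, scipy 1.17.1) and equalled those of bedtools (version 2.31.1) in 16 of 16 counts. In simulated lists the kept peaks were shifted by less than a peak width. Their overlap was therefore certain, and that run is no support for the overlap calls. Shares carry exact (Clopper-Pearson) 95% intervals. Sites named by position are the first of each list in each window, those in all 4 lists, and those with c-Jun in 1 treatment only within the upper 50% of its list; others named were chosen after their values were seen. No mm9 annotation was used, so peaks were not assigned to promoters, exons or introns, and the planned counts at other pathway genes were not made. RefSeq tables (GRCm38.p6) gave gene neighbours for 6 of 6 genes and start-site sequences for 4. The genes and windows were chosen with earlier results of these data known. Alternatives are other overlaps, window widths and list lengths.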

Additional observations from a re-analysis of the deposited data

How the results depend on the processing

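Of the total counts in the windows, 1 moved by over 1.5 times: with the windows extended by 50 kb at both ends, p300 peaks without pioglitazone numbered 70 in place of 45. The retained share ranged over 7 alternatives from 48.9% to 63.9% for p300 and from 55.2% to 73.9% for c-Jun. Over the same alternatives the whole-list share ranged from 45.6% to 74.5% for p300 and from 40.2% to 64.5% for c-Jun. For p300 the windows were below the whole list with lists cut to equal length (58.1% against 64.6%), with the upper 50% of rows of every list (55.6% against 56.5%) and with the upper 50% of rows without pioglitazone against the full list (63.9% against 74.5%). The share of c-Jun peaks on p300 in the windows ranged over 6 alternatives from 47.8% to 60.9% with pioglitazone and from 72.4% to 84.6% without. All these window shares lay within the intervals given. By window, the p300 count with minus without pioglitazone stayed below 0 under 5 alternatives for Smad7 (-7 to -2), Smad3/Smad6 (-9 to -5) and Tgfbr2 (-4 to -2). For Tgfb1 it was 1 and became -1 with the windows extended by 50 kb, so its direction depends on the edges, as the added length takes in further peaks. For Skil it was 0 and reached -5 with that extension. For c-Jun the difference went from -2 to 1 near Smad7, from -4 to -3 in the Smad3/Smad6 window, and lay between -2 and 0 in the others.

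No paired analysis was possible because each antibody and treatment is 1 library. Depth is unknown, so an absent peak cannot be told from a peak below the calling threshold, and counts of 0 to 27 peaks per window and list leave wide intervals.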
